A study of Homo sapiens with 12 samples.

Results

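The genes described here are 37 genes linked to the endoplasmic reticulum (ER). They include genes that sense misfolded protein in its lumen or relay that signal, fold it, or send it back to the cytosol for degradation. A few act in the entry of proteins into the ER or their export from it. They were taken from a fixed list of gene names, and each gene was read from the brightest row of the expression table that carried its symbol and no other. Of the 37 genes, 36 had such a row, out of 18395 genes in the table. PDIA3, a disulfide isomerase, was left out because its 2 rows also carry the symbol of the copy PDIA3P1, and VIMP is given under its current name SELENOS. RNA levels were measured in HEK293T cells, an embryonic kidney line of human origin with the SV40 large T antigen, on Affymetrix Human Gene 1.0 ST arrays. Cells were transiently transfected with pRS-RFP-C plasmids and lysed after 78 h, in 4 groups of 3 arrays that the labels call biological replicates. The control group (shCTRL) received a nontargeting shRNA, and the other groups received shRNAs against UBE4B (shUBE4B), against LSD1 (shLSD1), or against both (shUBE4B+shLSD1, the double knockdown). The study describes a misfolding SOD1 mutant as present in all 4 groups, controls included, although the labels do not name it. No group was treated with a drug that causes ER stress.

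Proteins that enter the secretory pathway are folded in the ER lumen by chaperones, lectins and disulfide isomerases. When folding fails, the membrane proteins IRE1, PERK and ATF6 start the unfolded protein response, in which IRE1 splices the mRNA of the transcription factor XBP1, PERK slows translation through eIF2alpha, and ATF6 is cut to release a transcription factor. Their targets include the chaperones themselves and the parts of ER-associated degradation, in which misfolded proteins are recognised, ubiquitinated at the ER membrane and pulled into the cytosol by the ATPase p97, a binding partner of the ubiquitin chain elongation factor UBE4B. LSD1, encoded by KDM1A, is a histone demethylase. The comparisons asked whether depletion of either protein, or of both, was accompanied by changed RNA levels of this machinery.

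Both knockdowns were visible in the arrays. UBE4B was at 37.8% of its control level in the UBE4B knockdown and at 37.4% in the double knockdown, and KDM1A was at 41.6% in the LSD1 knockdown and at 46.0% in the double knockdown. The deposited values are log2 signals with array medians between 7.00 and 7.06, so 1 unit stands for a doubling of signal. Control replicate 2 stood apart from the rest. It correlated with its own group at 0.993 and 0.994 over all genes, and it held the lowest of the 12 values for 10 of the 36 genes (17.3% of all genes) and the highest for 0 of them (20.0% of all genes). The median SD of the 36 genes between arrays was 0.099 in the control and 0.045 in the LSD1 knockdown. Log2 sums of 6 marker genes of HEK293 cells ranged from 12.35 to 12.56 over all arrays, and those of 8 marker genes of colon epithelium, the origin of a second line used in the study, from 10.18 to 10.33. Of the colon markers, CDH17 was at 4.55 to 4.83 and CDX2 at 9.17 to 9.45. The sums of each knockdown overlapped those of the control, but such sums mostly follow the brightest genes. Taken singly, EPCAM, one of the 8 colon markers, fell by 0.55 with shUBE4B and by 0.58 with both (adjusted p = 0.0264 and 0.0232 in limma), and its part in the results was not tested. No other of the 14 marker genes passed against the control, with NEFL at 0.23 and NEFM at -0.26 the largest differences of the HEK293 markers with shUBE4B. The samples are bulk RNA, in which fewer cells with a transcript and less of it per cell cannot be told apart.

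Promoters are shown first because a short sequence, the ER stress element, links several of these genes. The first form of the element is CCAAT, then any 9 bases, then CCACG, and the second form is ATTGG, any base, then CCACG. ATF6 and XBP1 are known to act through such elements. RefSeq promoters (GRCh38.p14, 250 bases before to 50 after each start) were matched for 33 of the 37 genes, and both strands were searched. The first form was found in 8 of 33 promoters (24.2%) and in 27 of all 35116 (0.0769%), and the second form in 3 of 33 (9.09%) and in 19 of 35116 (0.0541%). Either form was present in 11 of 33 (33.3%), against 46 of 35116 (0.131%) and 30 of the 14240 genes with both a promoter and a value on the arrays (0.211%). Most of the 11 belong to chaperones and folding enzymes, of which 8 of 16 had an element. The other classes had 1 of 6 (sensors and signalling), 1 of 9 (ER-associated degradation) and 1 of 2 (translocation and export). In the class of sensors and signalling the element was that of XBP1, and the receptor genes ATF6, ERN1 (IRE1) and EIF2AK3 (PERK) held none. Genes of this kind served historically to define the element, so the share is a description of the list. The elements of 6 genes are printed from the classes of sensors and signalling (XBP1), chaperones (HSPA5, CALR, SDF2L1 and HYOU1) and degradation (HERPUD1). They lie at chr22:28800598-28800626 (minus strand) for XBP1, chr9:125241386-125241414 (minus strand) for HSPA5, chr19:12938379-12938407 (plus strand) for CALR, chr22:21642109-21642129 (plus strand) for SDF2L1, chr11:119057375-119057395 and chr11:119057269-119057289 (minus strand) for HYOU1, and chr16:56932020-56932040 (plus strand) for HERPUD1, all upstream of the RefSeq start of the gene. Each is written 5′ to 3′ on the strand of its gene, and capitals mark the fixed letters of the element, read as CGTGG and ATTGG (or CCAAT) where it lies on the opposite strand.
XBP1: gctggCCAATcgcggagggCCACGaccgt
HSPA5: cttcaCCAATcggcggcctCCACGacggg
CALR: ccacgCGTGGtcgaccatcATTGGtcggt
SDF2L1: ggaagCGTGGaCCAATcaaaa
HYOU1 (distal): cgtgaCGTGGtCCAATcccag
HYOU1 (proximal): tgggaCGTGGtCCAATgagta
HERPUD1: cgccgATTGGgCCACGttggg

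The elements lay between 243 and 34 bases before the start, closest in XBP1. HSP90B1 and HYOU1 held 2 each. Another motif, TGACGTG, the core bound by XBP1 and ATF6, was present only in HYOU1 among the 33 promoters (3.03%, against 692 of 35116 or 1.97%), where it overlaps the distal element. The C/EBP-ATF element TGATGCAA, a site of ATF4, was present in PPP1R15B and HERPUD1 (6.06%, against 304 of 35116 or 0.866%). These exact letters do not cover all sites such factors use, and a missing match says nothing of the factor.

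**Figure D1:**
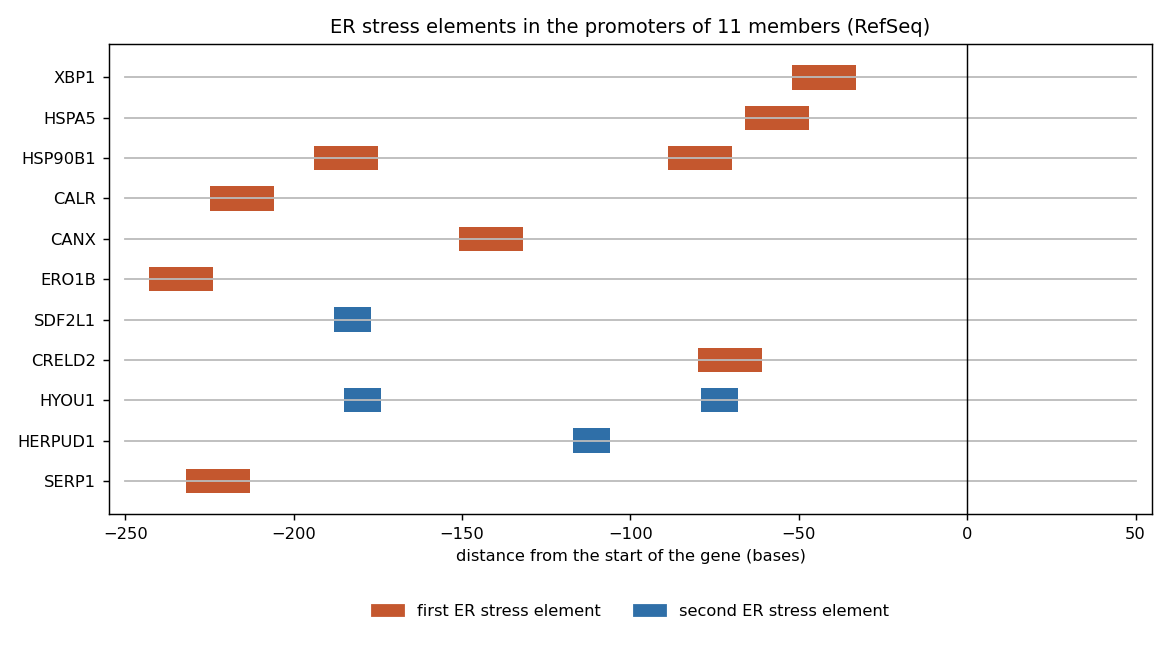
Position of ER stress elements in the promoters of the 11 genes that hold one, in bases from the start of the gene, with the first form in orange and the second in blue on a grey line for the searched window. HSP90B1 and HYOU1 hold 2 elements each, and the element of XBP1 lies 52 to 34 bases before the start.

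Few of the 36 genes differed from the control, in numbers close to the share of all genes that did. In the UBE4B knockdown, limma called 1 gene higher (DERL2), where 5.6% of all genes were called higher, and 2 lower (XBP1 and DNAJC3), where 4.47% were called lower. In the double knockdown, 0 of 36 were higher (3.75% of all genes) and 2 lower (DNAJC3 and OS9, against 3.83% of all genes), while 8 had an unadjusted p under 0.05 (22.2%, against 20.7% of all genes). In the LSD1 knockdown, limma called 0 of 36 (0.821% of all genes) and 5 had an unadjusted p under 0.05 (13.9%, against 13.4% of all genes). The methods' t-test with Benjamini-Hochberg adjustment called 0 of 36 in each of the 3 comparisons with the control. Over all 18395 genes it called only 46, 1 and 48 in the UBE4B, LSD1 and double knockdowns. Medians of the 36 log2 differences were -0.06, 0.06 and -0.06 in the UBE4B, LSD1 and double knockdowns, beside -0.03, -0.01 and -0.01 over all genes. The differences were small, from -0.35 to 0.27 with shUBE4B, from -0.23 to 0.24 with shLSD1 and from -0.36 to 0.21 with both. The 3 comparisons share the control arrays. Leaving out control replicate 2 raised the calls from 3 to 5 in the UBE4B knockdown (adding PDIA6 and SEC61B, both lower) and from 2 to 4 in the double knockdown (adding DNAJB9 and ERO1B, both lower). Over all 18395 genes the calls went from 1853 to 1225 and from 1394 to 1548. Without UBE4B knockdown replicate 3 the UBE4B knockdown had 1 call among the 36 (XBP1) and 919 over all genes. The double knockdown had 0 calls among the 36 without control replicate 1 (950 over all genes) or double knockdown replicate 2 (861). Without double knockdown replicate 1 it had 1 (DNAJC3, with 903 over all genes).

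**Figure D2:**
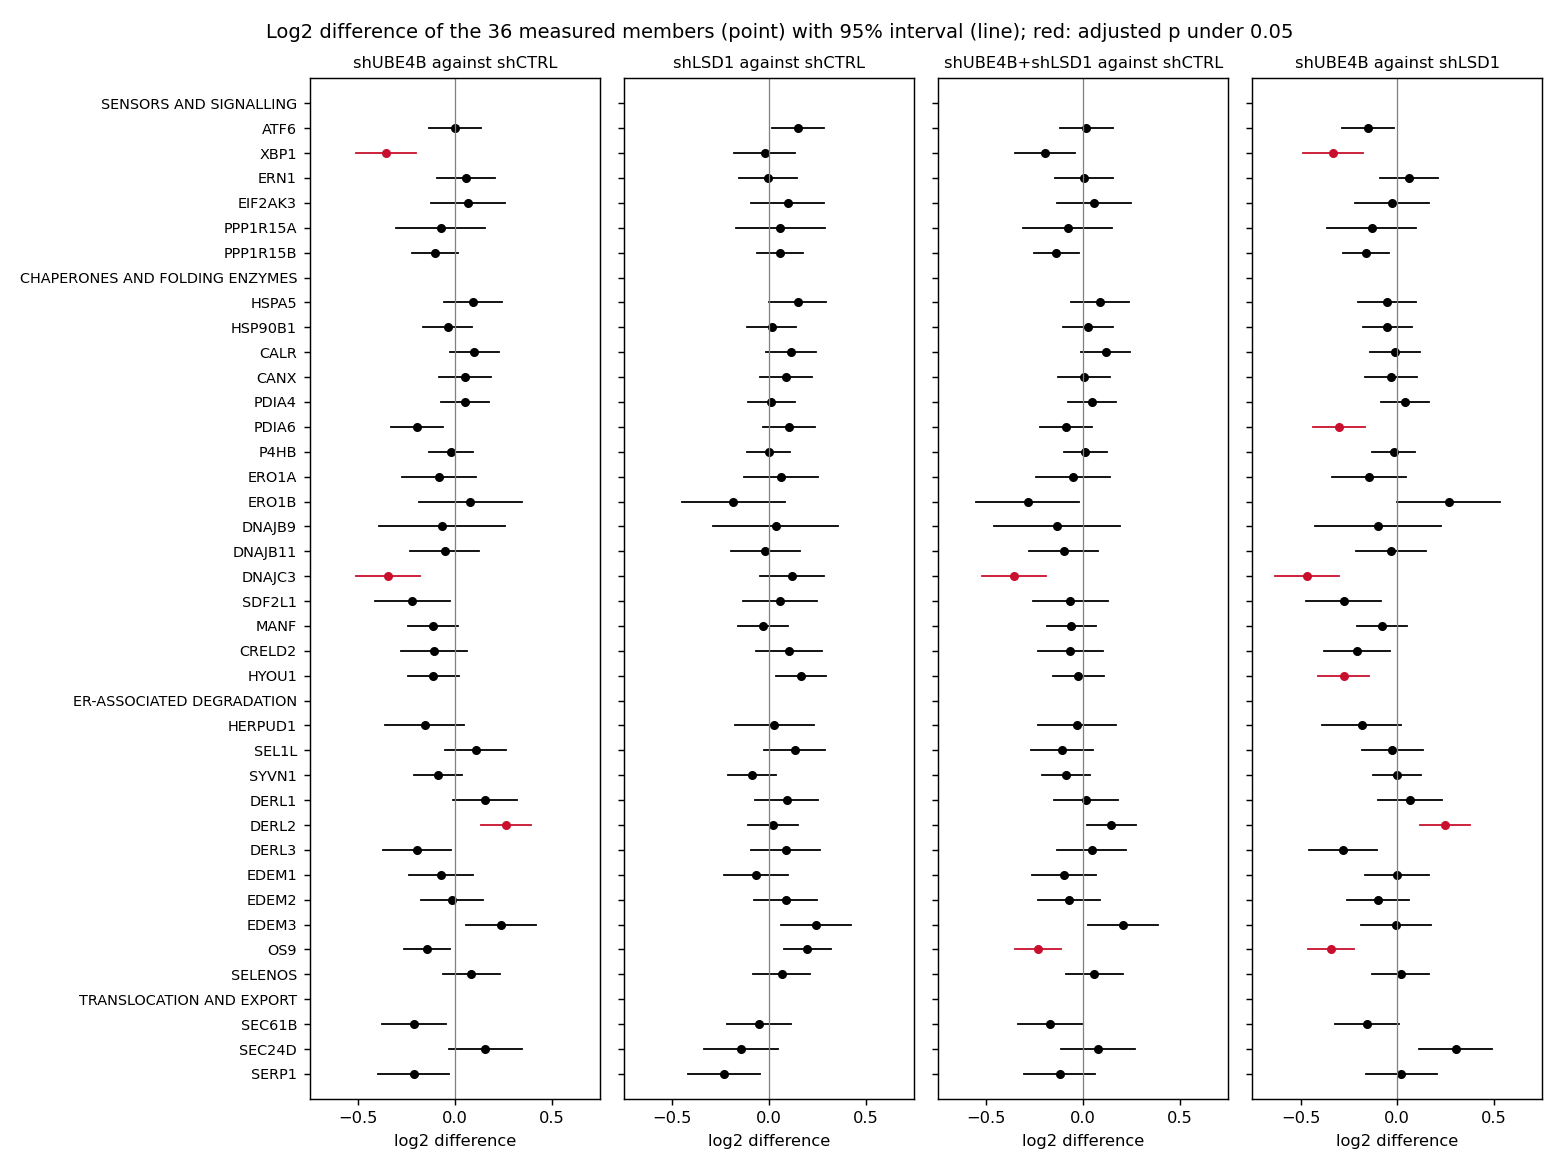
Log2 difference of each of the 36 measured genes (points) with its 95% interval (lines) in 4 comparisons, grouped by class, with genes past an adjusted p of 0.05 in limma in red. Most intervals include 0, XBP1 (-0.35), DNAJC3 (-0.35) and DERL2 (0.27) are red in the comparison of shUBE4B with shCTRL, and 6 genes are red where shUBE4B is set against shLSD1.

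Among the sensors and their signalling partners, XBP1 fell with the UBE4B knockdown and the receptors themselves did not pass the test. XBP1 encodes the transcription factor that is made from the mRNA spliced by IRE1, and the array reports 1 value for all its forms. Its log2 signal was 10.99, 11.07 and 11.20 on the 3 control arrays, 10.67, 10.73 and 10.81 with shUBE4B, 11.05, 11.03 and 11.11 with shLSD1, and 10.83, 10.85 and 11.00 with both. All UBE4B knockdown arrays lay below all control arrays, the LSD1 knockdown lay within the control range, and the double knockdown lay between the single knockdowns and overlapped the control. XBP1 fell by 0.35 on the log2 scale with shUBE4B (95% interval -0.51 to -0.20, adjusted p = 0.00941 in limma), to 78.3% of control. In the double knockdown its log2 difference from control was -0.20 (95% interval -0.35 to -0.04, adjusted p = 0.129 in limma). That difference was called when the replicate number was used as a block. All double knockdown arrays of XBP1 were above those with shUBE4B alone (log2 difference 0.16, adjusted p = 0.374 in limma).

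ATF6, the receptor that is cut in the Golgi to release a transcription factor, had log2 signals of 11.00, 10.90 and 11.09 in the control and 10.95, 11.03 and 11.02 with shUBE4B. With shLSD1 its signals were 11.15, 11.15 and 11.15, and with both they were 11.03, 10.95 and 11.06. The LSD1 knockdown arrays were above all others, by 0.15 over the control, which did not pass the test (adjusted p = 0.306 in limma). ERN1, which encodes IRE1, was at 7.76, 7.70 and 7.89 in the control, 7.87, 7.81 and 7.85 with shUBE4B, 7.81, 7.78 and 7.75 with shLSD1, and 7.84, 7.67 and 7.86 with both. All 4 groups of ERN1 overlapped, and the 95% intervals of its 3 differences from control lay between -0.15 and 0.21. EIF2AK3, which encodes PERK, was at 8.62, 8.27 and 8.64 in the control, 8.54, 8.57 and 8.63 with shUBE4B, 8.61, 8.58 and 8.62 with shLSD1, and 8.51, 8.53 and 8.66 with both. The single low value of EIF2AK3 was control replicate 2, and the groups overlapped, with intervals between -0.13 and 0.29. PPP1R15A and PPP1R15B encode the stress-induced and constitutive partners of the phosphatase that reverses the action of PERK. Neither passed the test against the control, with log2 differences of -0.07, 0.06 and -0.08 for PPP1R15A and -0.10, 0.06 and -0.14 for PPP1R15B in the UBE4B, LSD1 and double knockdowns.

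**Figure D3:**
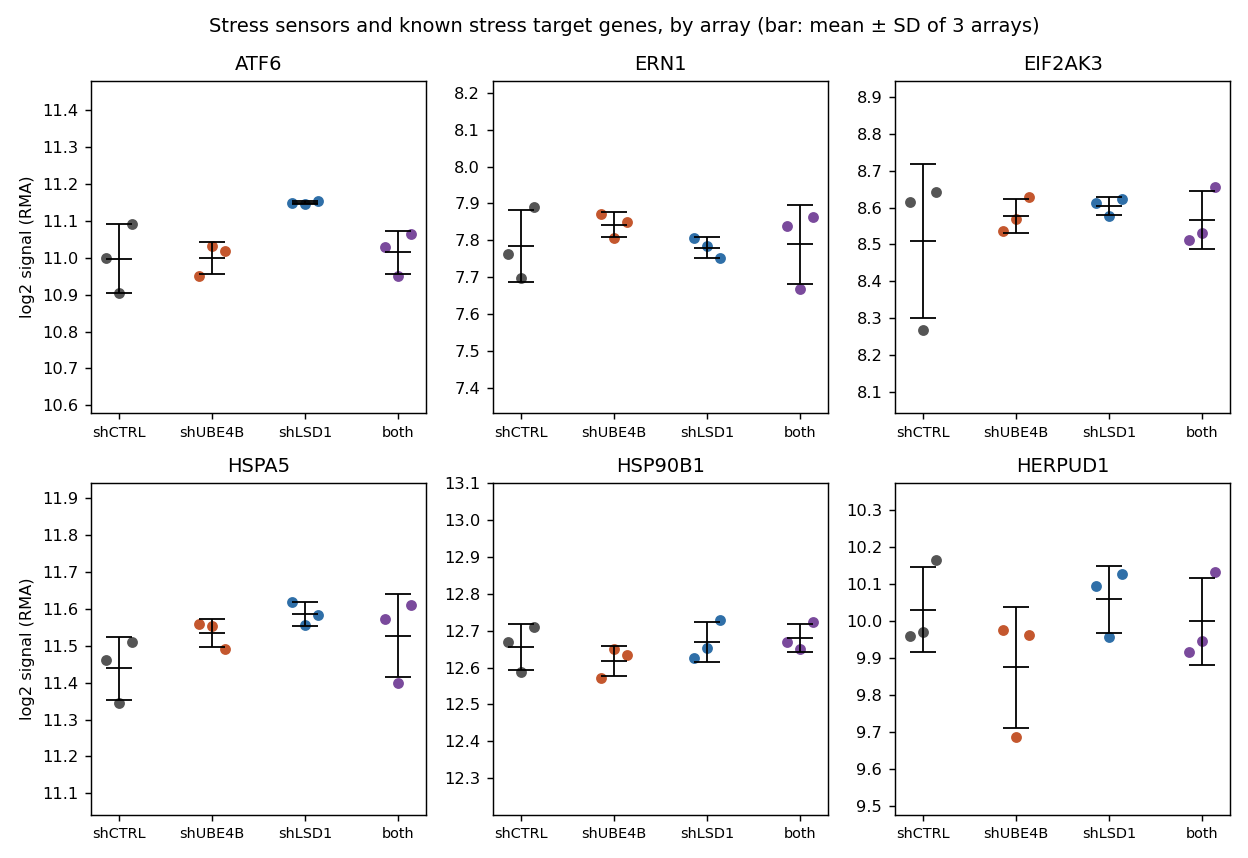
Log2 signal of the receptors ATF6, ERN1 and EIF2AK3 and of the stress targets HSPA5, HSP90B1 and HERPUD1 on each of the 12 arrays by group (points), with the mean ± SD of 3 arrays (bars) and an axis of 0.9 log2 units in each panel. The groups overlap for most genes, while ATF6 is highest in the LSD1 knockdown (11.15 on each array).

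The chaperones and folding enzymes form the largest class, with 16 measured genes, and DNAJC3 alone passed the test against the control. It was the 1 gene of 16 called by limma with shUBE4B and again with both shRNAs (6.25% in each, against 10.1% and 7.58% of all genes). With shLSD1, 0 of 16 were called (0.821% of all genes), and 1 had an unadjusted p under 0.05 (6.25%, against 13.4% of all genes). HSPA5 (BiP), the main HSP70 of the ER lumen and the customary readout of ER stress, was at 11.46, 11.34 and 11.51 in the control, 11.56, 11.55 and 11.49 with shUBE4B, 11.62, 11.56 and 11.58 with shLSD1, and 11.57, 11.40 and 11.61 with both. The LSD1 knockdown arrays were above all control arrays, and the other groups overlapped with the control. Its log2 differences were 0.10 (95% interval -0.05 to 0.24), 0.15 (-0.0011 to 0.30) and 0.09 (-0.06 to 0.24) in that order, with adjusted p values of 0.391, 0.377 and 0.531 in limma. HSP90B1 (GRP94), the HSP90 of the lumen, was at 12.67, 12.59 and 12.71 in the control, 12.57, 12.65 and 12.63 with shUBE4B, 12.63, 12.65 and 12.73 with shLSD1, and 12.67, 12.65 and 12.72 with both. Its groups overlapped, and the intervals of its differences from control lay between -0.16 and 0.15. DNAJB9 (ERdj4), a J-domain partner of BiP, was at 8.17, 7.54 and 8.25 in the control, 8.07, 7.77 and 7.93 with shUBE4B, 8.04, 7.91 and 8.11 with shLSD1, and 7.74, 7.83 and 7.99 with both. DNAJB9 had the largest SD of the 36 genes in the control (0.386), where replicate 2 was the lowest of all 12 arrays.

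DNAJC3 (p58IPK) is a J-domain co-chaperone of BiP that is also known as an inhibitor of PERK. Its log2 signal was 8.97, 8.71 and 8.94 in the control, 8.54, 8.60 and 8.45 with shUBE4B, 8.95, 9.04 and 8.99 with shLSD1, and 8.53, 8.44 and 8.58 with both. All 6 arrays with shRNA against UBE4B lay below all 6 arrays without it, and the lowest of the latter was control replicate 2. DNAJC3 fell by 0.35 with shUBE4B (95% interval -0.51 to -0.18, adjusted p = 0.0137 in limma), to 78.7% of control, and by 0.36 in the double knockdown (-0.53 to -0.19, adjusted p = 0.0124 in limma), to 78.0%. The first call was lost without UBE4B knockdown replicate 3 (adjusted p = 0.0626 in limma), and the second without control replicate 1 (0.0522) or without double knockdown replicate 2 (0.0547). With both shRNAs instead of shUBE4B alone its log2 signal differed by -0.01 (adjusted p = 0.959 in limma).

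The other folding enzymes did not pass the test against the control. The lectin chaperones CALR and CANX, which hold glycoproteins during folding, differed from the control by 0.10, 0.11 and 0.12 and by 0.05, 0.09 and 0.0050 on the log2 scale with shUBE4B, shLSD1 and both. The disulfide isomerases P4HB and PDIA4 differed by between -0.02 and 0.05. PDIA6, a further disulfide isomerase, was at 11.26, 11.14 and 11.26 in the control, 11.01, 11.08 and 10.99 with shUBE4B, 11.28, 11.32 and 11.38 with shLSD1, and 11.06, 11.15 and 11.18 with both. All UBE4B knockdown arrays of PDIA6 were below and all LSD1 knockdown arrays above the control, by -0.20 (adjusted p = 0.0619) and 0.11 (adjusted p = 0.507), neither of which passed limma. The oxidases ERO1A and ERO1B, which reoxidise disulfide isomerases, differed by -0.08, 0.06 and -0.05 and by 0.08, -0.19 and -0.29, and the last difference, of ERO1B in the double knockdown, was called without control replicate 2. Co-chaperones and lumenal factors under stress control also did not pass. SDF2L1 differed by -0.22, 0.06 and -0.07, MANF by -0.11, -0.03 and -0.06, CRELD2 by -0.11, 0.10 and -0.07, and DNAJB11 by -0.05, -0.02 and -0.10 with shUBE4B, shLSD1 and both.

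**Figure D4:**
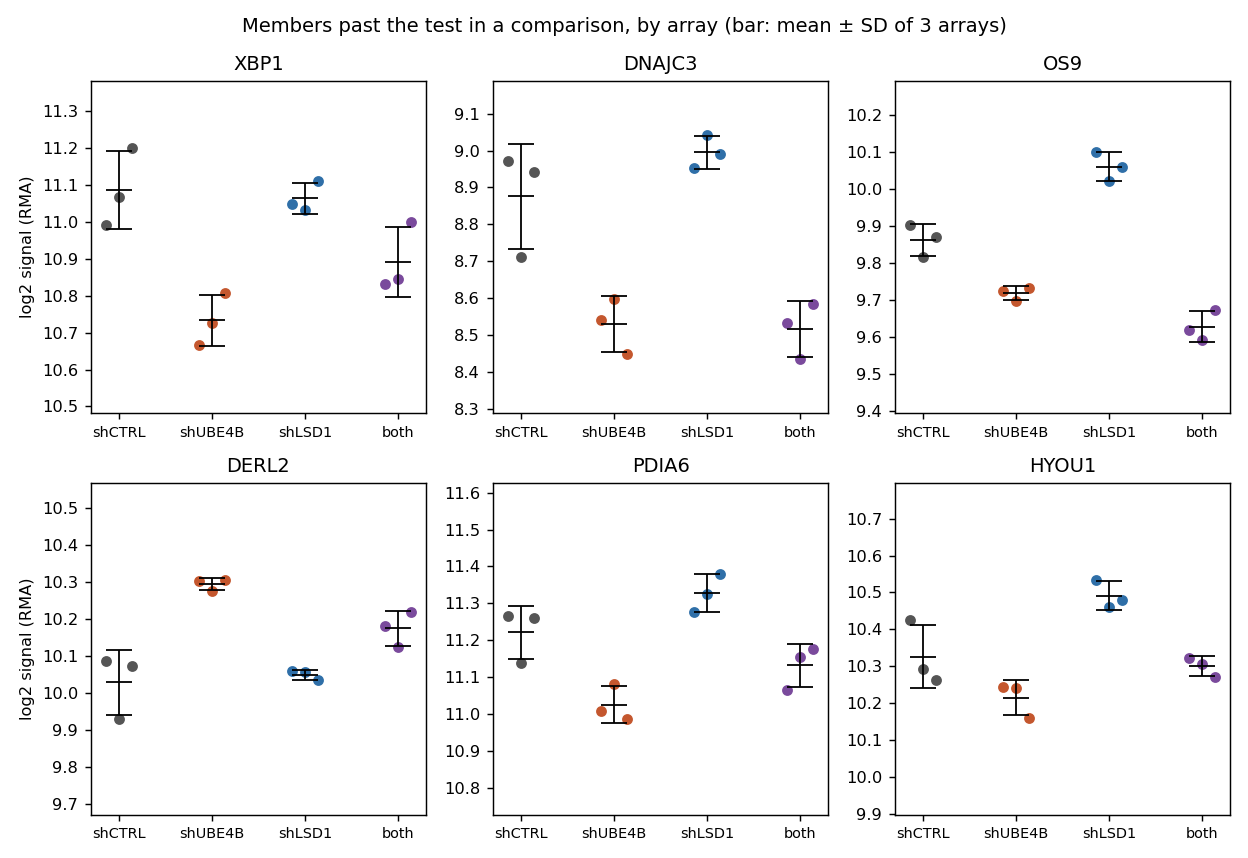
Log2 signal of the 6 genes that passed the test in at least 1 of the comparisons with shCTRL or of shUBE4B with shLSD1, on each of the 12 arrays by group (points), with the mean ± SD of 3 arrays (bars) and an axis of 0.9 log2 units in each panel. DNAJC3 and OS9 are lower in both groups that received shUBE4B (DNAJC3 8.44 to 8.60, OS9 9.59 to 9.73), and DERL2 is highest with shUBE4B alone (10.28 to 10.31).

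In ER-associated degradation, 11 genes were measured. Of these DERL2 rose in the UBE4B knockdown and OS9 fell in the double knockdown (9.09% called in each, against 10.1% and 7.58% of all genes). In the LSD1 knockdown limma called 0 of the 11 (0.821% of all genes), and 2 had an unadjusted p under 0.05 (18.2%, against 13.4% of all genes). DERL2 (Derlin-2) is a membrane protein of the channel complex through which substrates leave the ER. It was at 10.09, 9.93 and 10.07 in the control, 10.30, 10.28 and 10.31 with shUBE4B, 10.06, 10.06 and 10.03 with shLSD1, and 10.18, 10.13 and 10.22 with both. The UBE4B knockdown arrays were above all others, and the double knockdown arrays were above the control and the LSD1 knockdown. DERL2 rose by 0.27 with shUBE4B (95% interval 0.14 to 0.39, adjusted p = 0.0146 in limma), to 120.2% of control. This call was lost without UBE4B knockdown replicate 1 (adjusted p = 0.0541 in limma) or 3 (0.0534), and in the methods' t-test with Benjamini-Hochberg adjustment. Its difference in the double knockdown was 0.15 (adjusted p = 0.173 in limma). The related derlins did not pass, with differences of 0.15, 0.09 and 0.02 for DERL1 and of -0.20, 0.09 and 0.04 for DERL3 with shUBE4B, shLSD1 and both.

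OS9 is a lectin that recognises trimmed glycans on misfolded proteins and hands them to the SEL1L-HRD1 ubiquitin ligase. Its log2 signal was 9.90, 9.82 and 9.87 in the control, 9.72, 9.70 and 9.73 with shUBE4B, 10.10, 10.02 and 10.06 with shLSD1, and 9.62, 9.59 and 9.67 with both. The 4 groups did not overlap, with the double knockdown lowest, then the UBE4B knockdown, the control and the LSD1 knockdown. No difference between neighbours in this order passed the adjusted threshold in limma. The double differed from the UBE4B knockdown by -0.09 (adjusted p = 0.498), the UBE4B knockdown from the control by -0.14 (adjusted p = 0.112), and the LSD1 knockdown from the control by 0.20 (adjusted p = 0.116). OS9 fell by 0.23 in the double knockdown (95% interval -0.35 to -0.12, adjusted p = 0.0207 in limma), to 85.0% of control. That call was lost without control replicate 1 (adjusted p = 0.0679) and without double knockdown replicate 1 (0.0643) or 2 (0.0741). With shLSD1 against control, OS9 was called (higher) once the 40% dimmest genes were removed (adjusted p = 0.0471 in limma), and no other of the 36 genes was called in that comparison under the alternatives tried.

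HERPUD1 (HERP), a membrane protein that organises the ligase complex and a strong target of the stress response, was at 9.96, 9.97 and 10.16 in the control, 9.98, 9.69 and 9.96 with shUBE4B, 10.09, 9.96 and 10.13 with shLSD1, and 9.92, 9.95 and 10.13 with both. Its groups overlapped, with 1 low value in the UBE4B knockdown, and its intervals lay between -0.36 and 0.23. The ligase SYVN1 (HRD1) differed from the control by -0.09 in each of the 3 knockdowns, and its arrays lay below all control arrays in each, without passing the test. Its partner SEL1L differed by 0.11 and 0.13 in the single knockdowns and by -0.11 in the double knockdown. EDEM1, EDEM2 and EDEM3 trim mannose from glycoproteins that are to be degraded. EDEM3 differed by 0.24, 0.24 and 0.21 (adjusted p = 0.0894, 0.221 and 0.167 in limma), with control replicate 2 the lowest of the 12 arrays, and EDEM1 and EDEM2 differed by at most 0.10 in size. SELENOS, a membrane anchor for p97, differed by 0.08, 0.07 and 0.06.

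The last 3 genes act in translocation and export, and limma called 0 of them in any comparison with the control (2, 1 and 1 with an unadjusted p under 0.05 in the UBE4B, LSD1 and double knockdowns). Of all genes, 10.1%, 0.821% and 7.58% were called in these comparisons, and 27.5%, 13.4% and 20.7% had an unadjusted p under 0.05. SEC61B, a subunit of the channel through which proteins enter the ER, differed by -0.21, -0.05 and -0.17 with shUBE4B, shLSD1 and both. SERP1, a small protein bound to that channel, differed by -0.21, -0.23 and -0.12, and its arrays in both single knockdowns lay below all control arrays. SEC24D, a cargo receptor of the COPII coat that forms vesicles leaving the ER, differed by 0.16, -0.14 and 0.08.

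Set against each other, the single knockdowns differed by 6 called genes. With shUBE4B against shLSD1, limma called 1 of 36 higher (2.88% of all genes) and 5 lower (2.58% of all genes), and 11 of 36 were lower on all arrays (16.4% of all genes). The LSD1 knockdown lay above the control on all arrays for 8 of 36 genes (8.53% of all genes) and the UBE4B knockdown below it on all arrays for 9 of 36 (16.1% of all genes). Of the 36 log2 differences between the single knockdowns, 28 were negative (77.8%, against 55% of all genes) and the median was -0.05, beside -0.02 over all genes. DNAJC3 differed by -0.47 (95% interval -0.63 to -0.30, adjusted p = 0.00407) and OS9 by -0.34 (-0.46 to -0.22, adjusted p = 0.00362 in limma), and both calls held in each of 21 alternatives. XBP1 differed by -0.33 (adjusted p = 0.0192 in limma) and PDIA6 by -0.30 (adjusted p = 0.0147). HYOU1, a large HSP70-related protein that recharges BiP with nucleotide, was at 10.42, 10.29 and 10.26 in the control, 10.24, 10.24 and 10.16 with shUBE4B, 10.53, 10.46 and 10.48 with shLSD1, and 10.32, 10.31 and 10.27 with both. Its UBE4B knockdown arrays were below and its LSD1 knockdown arrays above all others, at a difference of -0.28 (adjusted p = 0.0196 in limma). DERL2 was the gene that was higher with shUBE4B, by 0.25 (adjusted p = 0.0301 in limma). Leaving out any single UBE4B or LSD1 knockdown array lowered the 6 calls to 2 or 3, with 2 left (DNAJC3 and OS9) without UBE4B knockdown replicate 1 or without LSD1 knockdown replicate 2 or 3. Over all genes these omissions lowered the calls from 1005 to between 395 and 470. The marker sums also separated these groups, with the HEK293 markers at 12.48 to 12.52 with shUBE4B and 12.39 to 12.46 with shLSD1, and the colon markers at 10.18 to 10.275 and 10.28 to 10.32. Taken singly, only NEFL of the marker genes was called, higher with shUBE4B (log2 difference 0.37, adjusted p = 0.0231 in limma). The part of the markers in these differences was not tested.

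The double knockdown was also set against each single knockdown. Against shLSD1, which asks what depletion of UBE4B added, limma called 0 of 36 higher (0.973% of all genes) and 2 lower (1.8% of all genes), and 13 of 36 were lower on all arrays (12.4% of all genes). The called genes were DNAJC3, with a log2 difference of -0.48 (95% interval -0.64 to -0.31, adjusted p = 0.00587 in limma), and OS9, with -0.43 (-0.55 to -0.31, adjusted p = 0.00159 in limma). PPP1R15B came next with -0.20 (adjusted p = 0.0810 in limma). Of the marker genes, CDH2 was called lower in this comparison (log2 difference -0.23, adjusted p = 0.0440 in limma), and its part in the results was not tested. Against shUBE4B, which asks what depletion of LSD1 added, limma called 0 of 36 (0.147% of all genes). Here 4 had an unadjusted p under 0.05 (11.1%, against 13.0% of all genes), namely XBP1 and DERL3 with positive and ERO1B and SEL1L with negative differences. The t-test with Benjamini-Hochberg adjustment also called 0 of 36, and 1 of all 18395 genes. The interaction, the departure of the double knockdown from the sum of both single differences, was called by limma for 0 of 36 genes (0% of all genes), also in each alternative run, and 4 had an unadjusted p under 0.05 (11.1%, against 13.1% of all genes). These were SEL1L (-0.35, adjusted p = 0.234), OS9 (-0.29, adjusted p = 0.204), EDEM3 (-0.27, adjusted p = 0.365) and SERP1 (0.32, adjusted p = 0.305). For SEL1L the double knockdown, at 8.85, 8.87 and 8.93, lay below the control, at 8.95, 9.00 and 9.02, whereas both single knockdowns had arrays above it, at 9.06, 9.23 and 9.01 with shUBE4B and at 9.01, 9.23 and 9.14 with shLSD1.

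The genes with an ER stress element were then read together. Of the 11, limma called 1 lower in the UBE4B knockdown (XBP1), where 4.47% of all genes were called lower. It called 0 in the LSD1 and double knockdowns (0.821% and 7.58% of all genes). In each of these 2 had an unadjusted p under 0.05 (13.4% and 20.7% of all genes). Their median log2 differences were -0.11, 0.06 and -0.03, beside -0.06, 0.06 and -0.08 in the 22 genes whose promoter held no element. DNAJC3, OS9, DERL2 and PDIA6 had no element in the window searched. Of the 18395 genes, 14240 had a promoter that was searched, and 30 of these (0.211%) held an element. Of the 30, 19 were not on the list of 37. Of those 19, limma called ZNF17, a zinc finger gene chosen for mention after its value was seen, higher in the UBE4B knockdown (log2 difference 0.40, adjusted p = 0.0103), where 5.6% of all genes were called higher. It called 0 of the 19 in the LSD1 and double knockdowns (0 and 2 with an unadjusted p under 0.05). FICD, the enzyme that inactivates BiP by AMPylation, is among these 19 and differed by -0.16, 0.01 and -0.15.

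Further genes of the same pathways, 158 in 7 lists, were read for comparison. Over all 7 lists limma called 8 higher and 13 lower with shUBE4B, 0 higher and 2 lower with shLSD1, and 8 higher and 12 lower with both. As shares of the 158 these were 5.06% and 8.23% with shUBE4B (5.6% and 4.47% of all genes), 0% and 1.27% with shLSD1 (0.506% and 0.315%) and 5.06% and 7.59% with both (3.75% and 3.83%). Outputs of PERK and ATF4 had the lowest medians. Of 14 tested, 7 fell with shUBE4B and 5 with both, where 4.47% and 3.83% of all genes were called lower. All 14 log2 differences were negative in each, as were 56.5% and 53.1% of those of all genes, and the medians were -0.28 and -0.25. With shLSD1 limma called 0 of the 14 at a median of -0.12, and 3 had an unadjusted p under 0.05 (21.4%, against 13.4% of all genes). PSAT1, an enzyme of serine synthesis, fell by 0.63 and 0.57, STC2, a secreted glycoprotein, by 0.55 and 0.45, and ASNS, asparagine synthetase, by 0.48 and 0.38 with shUBE4B and with both (adjusted p = 0.000113 and 0.000114 for PSAT1, 0.00105 and 0.00277 for STC2, 0.0103 and 0.0325 for ASNS in limma).

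In the COPII coat, 3 of 16 genes rose with shUBE4B and 2 with both (18.8% and 12.5%, against 5.6% and 3.75% of all genes). SEC23A, a coat subunit, rose by 0.62 and 0.78 (adjusted p = 0.000457 and 5.67e-05 in limma) and SEC31A, of the outer coat, by 0.30 and 0.24 (adjusted p = 0.00826 and 0.0258). SAR1B, the GTPase that starts the coat, rose by 0.40 with shUBE4B alone (adjusted p = 0.0126 in limma). Of 41 further genes of ER-associated degradation, 3 rose and 3 fell with shUBE4B, 2 fell with shLSD1, and 2 rose and 3 fell with both. As shares these were 7.32% and 7.32% with shUBE4B (5.6% and 4.47% of all genes) and 4.88% with shLSD1 (0.315%). With both they were 4.88% and 7.32% (3.75% and 3.83%). ERLIN2, part of a membrane complex that degrades IP3 receptors, rose by 0.37 and 0.25 with shUBE4B and with both (adjusted p = 0.00413 and 0.0344 in limma). SVIP, an inhibitor of this pathway that binds p97, fell by 0.48 with shLSD1 and by 0.28 with both (adjusted p = 0.0132 and 0.0385), and FAM8A1, a partner of HRD1, by 0.41 and 0.34 (adjusted p = 0.0331 and 0.0204 in limma).

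For the 4 lists that follow, the shares of all genes called higher and lower were 5.6% and 4.47% with shUBE4B, and 3.75% and 3.83% with both. Of 38 further folding enzymes and lectins, 1 rose and 2 fell with shUBE4B (2.63% and 5.26%) and 2 rose and 2 fell with both (5.26% each). TXNDC12, a thioredoxin-like protein of the lumen, fell by 0.41 and 0.42 (adjusted p = 0.00373 and 0.00282 in limma), FKBP9, a prolyl isomerase, by 0.35 and 0.45 (adjusted p = 0.0261 and 0.00878), and TMX1, a membrane-bound thioredoxin-like protein, rose by 0.33 with both (adjusted p = 0.0178 in limma). Of 18 genes of stress signalling, EIF2S1, which encodes eIF2alpha, rose by 0.30 with shUBE4B (adjusted p = 0.0156), and with both TXNIP, an inhibitor of thioredoxin, rose by 0.40 (adjusted p = 0.0201) and BAK1, a mitochondrial death factor, fell by 0.25 (adjusted p = 0.0371 in limma). Of 24 genes of the translocon and signal peptidase, SSR2 fell by 0.20 with shUBE4B (adjusted p = 0.0394) and SEC11A rose by 0.27 with both (adjusted p = 0.0218 in limma). Of 7 receptors of ER-phagy, ATL3, a membrane-shaping GTPase, fell by 0.43 with both (adjusted p = 0.0486 in limma), although its arrays overlapped those of the control.

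**Figure D5:**
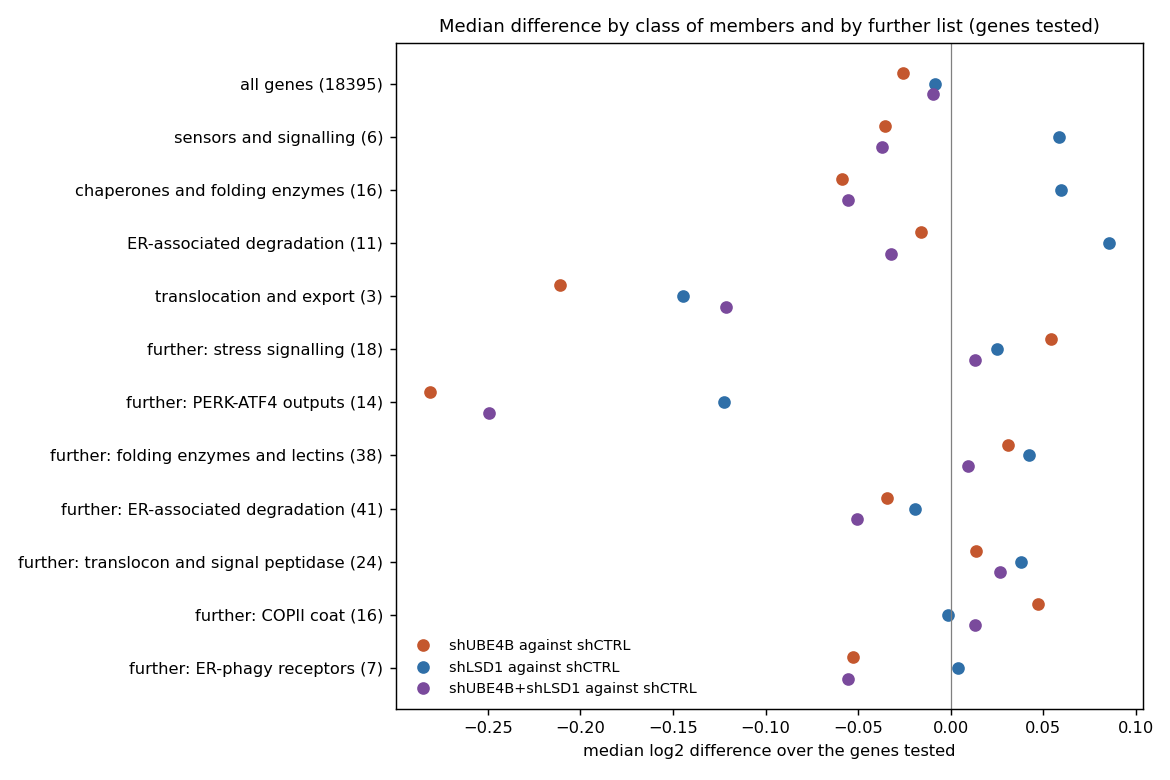
Median log2 difference from the control over the genes of each class and each further list (number of genes tested in brackets), with shUBE4B in orange, shLSD1 in blue and both in purple, and all 18395 genes at the top. The outputs of PERK and ATF4 lie lowest with shUBE4B (-0.28) and with both (-0.25). The classes of sensors and signalling, chaperones and degradation lie within 0.09 of 0. The class of translocation and export, of 3 genes, lies at -0.21, -0.14 and -0.12 with shUBE4B, shLSD1 and both.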

How the data were processed

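The authors isolated total RNA, hybridized Human Gene 1.0 ST arrays and deposited log2 signals from Partek, where RMA corrected the background, quantile normalized the arrays and summarised probes per transcript cluster (hg19). Versions of Partek and of its RMA step are not given in the sources used here, and the labels name another labelling kit than the study's methods. This normalization hides any change in total RNA per cell. Of 33297 transcript clusters, 19460 carried 1 symbol, which gave 18395 genes by brightest cluster, and 12083 unnamed clusters and 1754 with several symbols were left out.

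A model of 4 group means over 12 arrays was fitted with limma 3.58.1 (R 4.3.3; lmFit, eBayes; 8 residual and 5.13 prior degrees of freedom). A gene was called where its p, adjusted over all 18395 genes by Benjamini-Hochberg, was under 0.05. The arrays of all groups share this estimate of the spread. Alternatives left out each array, or changed the spread model, normalization, row choice, dim filter or test. Intervals are 95% intervals, unadjusted. The number of arrays limits the precision. The fit was also run on simulated arrays in which a set of genes was changed by known amounts. Their noise was independent and equal in all groups, unlike that of these arrays. The run therefore says nothing of unequal spread, of an outlying array or of deviations shared between arrays. The genes and lists were chosen with earlier results of these data known, so counts are descriptions. All measured genes of the list could be named. Values on each array were printed for genes called against shCTRL, the sensors and 4 known targets, and those of PDIA6, HYOU1 and SEL1L were added after their values were seen. Of each further list, the 3 called genes of largest change were named. Arrays of the same replicate number deviated together in part (median correlation 0.13, 10 of 18 over 0.1, range -0.08 to 0.33). For different numbers the median was -0.03, with 2 of 36 over 0.1. The only negative values between same-numbered arrays were those of control replicate 2 (-0.080, -0.026 and -0.045). The main fit did not use the numbers as pairs, and the counts with the replicate number as a block are given at the end. Promoters and motifs were read with Python 3.11.15, pandas and NumPy, and figures drawn with matplotlib.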

Additional observations from a re-analysis of the deposited data

How the results depend on the processing

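Values are counts of the 36 genes called, relative to 3 (UBE4B knockdown), 0 (LSD1 knockdown) and 2 (double knockdown) against control, 0 and 2 (double against UBE4B and LSD1 knockdown), 6 (UBE4B against LSD1 knockdown) and 0 (interaction). In the same order the main fit called 1853, 151, 1394, 27, 511, 1005 and 0 of all 18395 genes. Calls over all genes under each setting are given in brackets. For most settings only comparisons whose count moved from the main fit are listed, so a comparison not named for a setting can still hold calls. With trend and robust settings there were 6 in the UBE4B knockdown (2370) and 4 in the double against the LSD1 knockdown (780). Array weights gave 5 in the UBE4B knockdown (1784) and 10 between the single knockdowns (2548). Further quantile normalization gave 5 in the UBE4B knockdown (1931). With limma on the 6 arrays of a comparison, the UBE4B knockdown had 1 (692) and the double knockdown 0 (420). Without the 40% dimmest genes, OS9 alone of the list was called in the LSD1 knockdown (362 of the 11037 genes kept). The methods' t-test with Benjamini-Hochberg adjustment called 0 in the UBE4B knockdown (46), 0 in the double knockdown (48) and 0 in the double against the LSD1 knockdown (9). At 1.2-fold and an unadjusted p it called DNAJC3 in the double knockdown (1210) and ERO1B in the double against the UBE4B knockdown (568). Leaving out each array in turn gave 1 to 5 (UBE4B knockdown), 0 to 0 (LSD1), 0 to 4 (double), 0 to 0 and 2 to 2 (double against UBE4B and LSD1 knockdown), 2 to 8 (between single knockdowns) and 0 to 0 (interaction). In that order the ranges over all genes were 910 to 2329, 15 to 198, 861 to 1548, 8 to 135, 158 to 806, 395 to 1661 and 0 to 0. The 8 of the 36 genes between the single knockdowns was reached without control replicate 2 (1661), and the report names the arrays behind the other ranges. The cause of these shifts was not tested. No named gene changed direction in a comparison in which it was called.

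Same-numbered arrays deviated together in part, with negative correlations only for control replicate 2, and the main fit did not take the numbers as pairs. With the replicate number as a block, the counts were 3, 0, 3, 0, 2, 8 and 0 in the order above, the added genes being XBP1 in the double knockdown, and SDF2L1 and SEC24D between the single knockdowns. Over all 18395 genes the counts with this block were 2307, 236, 1819, 33, 685, 1275 and 1.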
